A study of Mus musculus with 16 samples.

Results

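Gpr161 and 9 other genes that carry the Hedgehog signal at the primary cilium were followed through RNA libraries of mouse embryos at E10.5, about halfway through gestation. The members were chosen by name and not by their values: Gpr161, Tulp3, Smo, Sufu, Kif7, Prkaca, Prkacb, Prkar1a, Inpp5e and Arl13b. They are 10 of the 54838 gene identifiers in the count tables, and all 10 were among the 21284 genes that passed the filter on low counts. The series holds 16 libraries in 8 groups of 2. The genotypes were Fuz KO, Gpr161 KO, Fuz;Gpr161 DKO (written DKO here) and WT, and each was sampled as a Head part, taken above the third branchial arches, and a Tail part, taken below the forelimbs. None of the embryos was treated. The sources used here give neither the knockout alleles nor the strain, nor how many embryos went into a library. They do not say either that both libraries of a group are from different embryos. In Gpr161 KO they are, since Xist was at 0.739 and 879 CPM in Head and 0.521 and 977 CPM in Tail, as in a male and a female. A p-value reflects the spread between samples, which in the other groups may be technical.

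The primary cilium is an antenna on the cell surface through which vertebrate cells read Hedgehog ligands. Without ligand, the receptor Gpr161 sits in the cilium and raises cyclic AMP, which activates protein kinase A (PKA), and PKA marks the Gli factors for processing into repressors. With ligand, Smo enters the cilium, Gpr161 leaves it, and the Gli factors are freed from Sufu to switch on targets such as Gli1, Ptch1 and Hhip. In the embryo this signal patterns the neural tube, face and limbs, and mouse embryos without Gpr161 are known for excess Hedgehog signalling in the neural tube. Fuz, an effector of planar cell polarity, is needed to build the cilium itself.

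Total counts ran from 39062489 to 53680317 per library. Levels are given in CPM, counts scaled to a common library total, after TMM scaling (trimmed mean of M-values). Calls were made at an adjusted p under 0.05, in a single fit that took in all 16 libraries. The 7 Head markers used summed to 128 to 268 CPM in Head libraries and 9.03 to 78.3 CPM in Tail libraries, where 0 to 3 of them were at 0. Otx2 was at 44.9 to 125 CPM in Head and at most 0.462 CPM in Tail libraries, while En1 averaged 7.61 CPM in Head WT and 12 CPM in Tail WT. The 9 Tail markers, such as Cdx2 and Hoxc10, summed to 6.23 to 14.3 CPM in Head and 259 to 478 CPM in Tail libraries. Fuz was at 0.877 to 1.66 CPM in Fuz KO, 0.808 to 1.89 CPM in DKO, 4.95 to 9.22 CPM in Gpr161 KO and 5.17 to 7.84 CPM in WT libraries, so the labels hold for that gene. By Xist and Y-linked counts the Fuz KO and DKO libraries were male and the WT libraries female, and Gpr161 KO had 1 male (number 1) and 1 female (number 2) in each region. The number 1 libraries of the mutants also stood apart in 19 genes of hypoxia and glycolysis. Their median log2 difference from WT was 2.95 in Head Fuz KO 1 and 2.46 in Tail Fuz KO 1, 2.4 and 1.91 in Head and Tail DKO 1, 1.39 and 1.23 in Head and Tail Gpr161 KO 1, and 0.14 to 0.63 in the number 2 libraries of the mutants. In Head Gpr161 KO the 16 cardiomyocyte markers summed to 2698 and 571 CPM, against 12.1 and 14.3 CPM in Head WT.

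Gpr161 itself was the member that differed most. Its levels in numbers 1 and 2 were 4.21 and 4.31 CPM in Head Gpr161 KO, 3.49 and 5.44 CPM in Head DKO, 25.4 and 52.5 CPM in Head Fuz KO, and 55 and 54 CPM in Head WT. In the Tail they were 4.98 and 4.08 CPM in Gpr161 KO, 2.12 and 3.29 CPM in DKO, 24.3 and 42.7 CPM in Fuz KO, and 46.8 and 51.5 CPM in WT. All 8 libraries of embryos without Gpr161 lay under all 8 libraries of the other embryos, as the genotype labels have it. Of all genes tested, 0.0423% lay lower without overlap in both regions in this way. Expressed against the WT mean of the region, 7.82% of the transcript level remained in Head Gpr161 KO, 8.2% in Head DKO, 9.22% in Tail Gpr161 KO and 5.51% in Tail DKO. The remaining signal rested on 92 to 230 counts per library, and the tables give 1 count per gene, so the exons that these reads cover were not analysed here.

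The fall of Gpr161 was called in each comparison of an embryo without the gene with WT. The log2 difference from WT was -3.68 in Head Gpr161 KO (SE 0.38, adjusted p = 0.000608), -3.61 in Head DKO (SE 0.38, adjusted p = 0.00214), -3.44 in Tail Gpr161 KO (SE 0.38, adjusted p = 0.00242) and -4.18 in Tail DKO (SE 0.39, adjusted p = 0.000604). Of all genes tested, 2.02% were called in Head Gpr161 KO against WT, 0.0329% in Head DKO, 0.305% in Tail Gpr161 KO and 0.0423% in Tail DKO, and Gpr161 was the 1 member that edgeR called in each. The comparisons of a region share their WT libraries. The call depended on single libraries in a pair of cases: without Head DKO 1 the Head DKO difference was -3.34 with an adjusted p of 0.113 (range over 26 alternatives 6.36e-48 to 0.113), and without Tail Gpr161 KO 2 the Tail Gpr161 KO difference was -3.3 with an adjusted p of 0.073 (range 9.27e-44 to 0.073). With sex as a term the Head DKO difference was -3.74, with an adjusted p of 0.0522.

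DKO also had less Gpr161 than Fuz KO, with a log2 difference of -3.12 in Head (SE 0.37, adjusted p = 0.00826) and -3.62 in Tail (SE 0.38, adjusted p = 0.00229). It was again the only member called there, where 0.0282% and 0.0329% of all genes were called. Without Head DKO 1 or Head DKO 2 the Head difference, at -2.85 or -3.48, was no longer called, nor was the Tail difference of -3.34 without Tail DKO 1. The Gpr161 level of DKO was not called different from that of Gpr161 KO, although the Tail libraries did not overlap: the log2 difference was 0.07 in Head (95% confidence interval -0.71 to 0.85) and -0.74 in Tail (-1.53 to 0.05).

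Fuz KO embryos kept Gpr161, but their libraries spread widely. Number 1 was at 46.6% of the WT mean in Head and 49.5% in Tail, while number 2 was at 96.4% and 86.9%. The log2 difference of Fuz KO from WT was -0.48 in Head (SE 0.34, adjusted p = 0.647) and -0.55 in Tail (SE 0.34, adjusted p = 0.816), and neither passed the test. The edgeR test called no member in either comparison (0.047% and 0.0094% of all genes were called), DESeq2 called none, and at an unadjusted p under 0.05 there were 0 members in Head and 1, Prkaca, in Tail, beside 8.17% and 5.21% of all genes. With both Fuz KO 1 libraries left out the differences were -0.05 in Head and -0.2 in Tail. The low libraries are those with the largest hypoxia medians, 2.95 and 2.46, against 0.15 and 0.14 in Fuz KO 2, and the part of this state in the low Gpr161 level was not tested.

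Ranked by mean level, Gpr161 ran from Tail DKO (2.71 ± 0.824 CPM, SD, n = 2) through Head Gpr161 KO (4.26 ± 0.0661), Head DKO (4.46 ± 1.38), Tail Gpr161 KO (4.53 ± 0.634), Tail Fuz KO (33.5 ± 13), Head Fuz KO (38.9 ± 19.2) and Tail WT (49.1 ± 3.3) to Head WT (54.5 ± 0.693). Among neighbours in that order, the libraries did not overlap between Tail DKO and Head Gpr161 KO, between Tail Gpr161 KO and Tail Fuz KO, and between Head WT and Tail WT. The other 4 neighbouring pairs overlapped. Head WT and Tail WT differed by 0.15 in log2 terms (SE 0.34, adjusted p = 0.94).

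**Figure D1:**
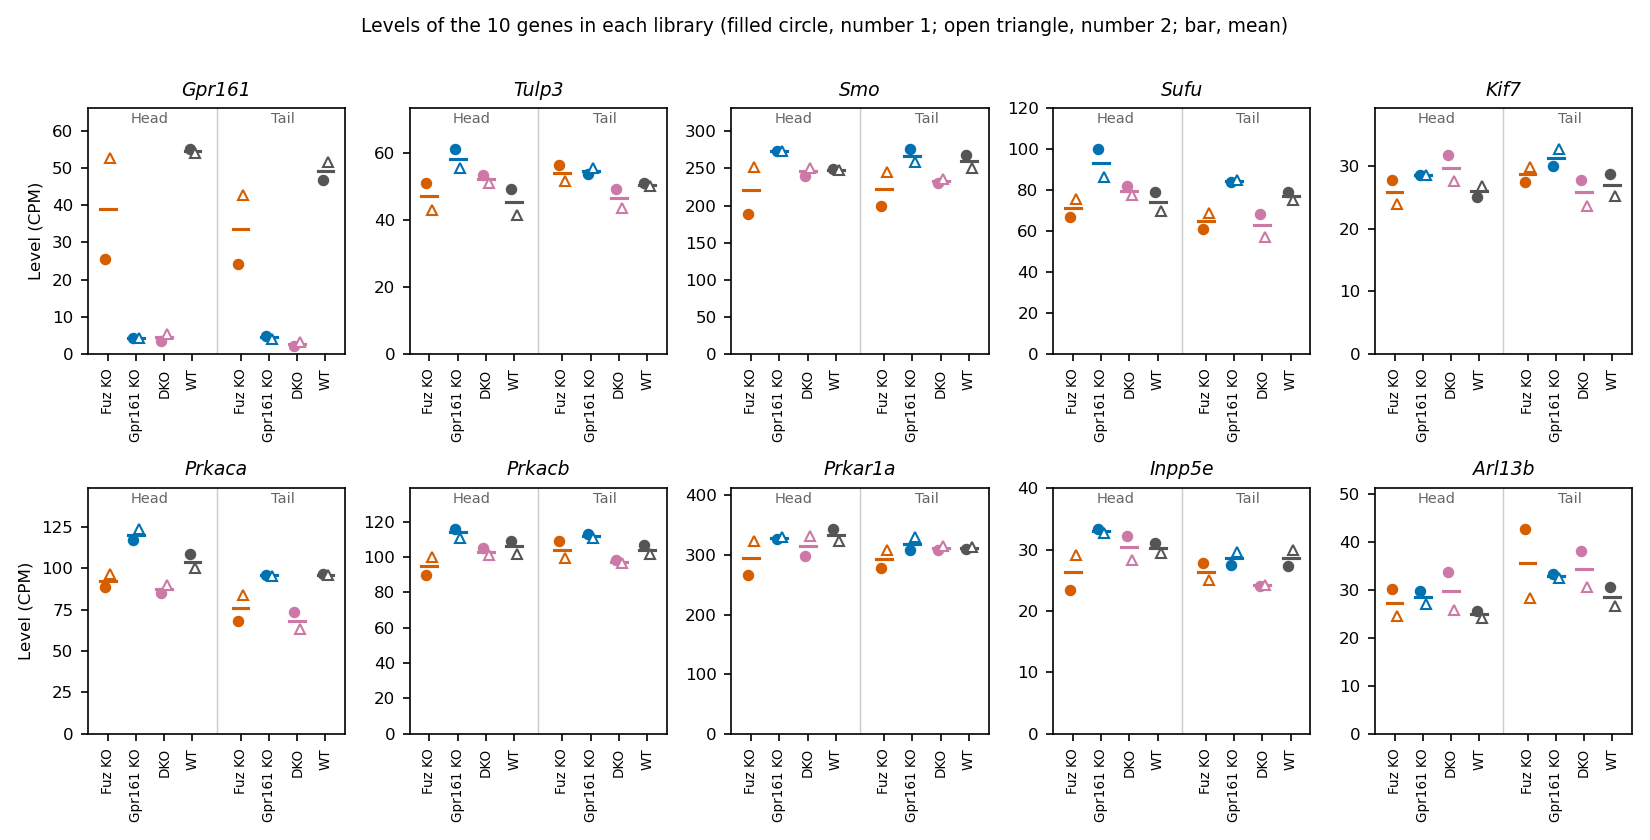
Level in CPM (vertical axes, from 0) of each of the 10 genes in every library, by genotype within Head and Tail; filled circles are number 1, open triangles number 2, and bars the mean of the pair. Gpr161 lies between 2.12 and 5.44 CPM in the 8 libraries without the gene and between 24.3 and 55 CPM in the others, while each other gene stays within a 1.95-fold range over all 16 libraries.

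The promoter of Gpr161 is shown because Gpr161 is the member that the knockout takes away. The 250 bases before a start on the plus strand of chromosome 1 (RefSeq, build GRCm38.p6, chr1:165302373-165302622) hold neither the Gli consensus nor the cAMP-response half-site described further on, and stand in lower case throughout. By the GENCODE annotation the stretch lies before the start of 1 annotated transcript and in an intron of another.
Gpr161: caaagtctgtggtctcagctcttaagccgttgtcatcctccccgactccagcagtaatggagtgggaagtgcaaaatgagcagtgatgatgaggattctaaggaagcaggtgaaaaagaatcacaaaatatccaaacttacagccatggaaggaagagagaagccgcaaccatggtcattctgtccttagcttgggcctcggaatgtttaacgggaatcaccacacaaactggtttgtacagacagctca

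By edgeR none of the 9 other members was called against WT in any mutant, and DESeq2 called 1, Prkaca in Tail DKO. Over these 54 differences, 6 for each gene, log2 fold changes ran from -0.49 (Prkaca in Tail DKO) to 0.36 (Tulp3 in Head Gpr161 KO). The 95% confidence intervals lay between -0.74 and 0.75, which corresponds to 0.597-fold and 1.68-fold. Each interval holds for 1 difference and not for the 54 jointly. It may be too narrow where the spread within a group is technical. The intervals concern transcript levels in whole embryo parts, in which fewer cells of a type and less RNA per cell cannot be told apart. They say nothing of the proteins or of where in the cell these are.

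**Figure D2:**
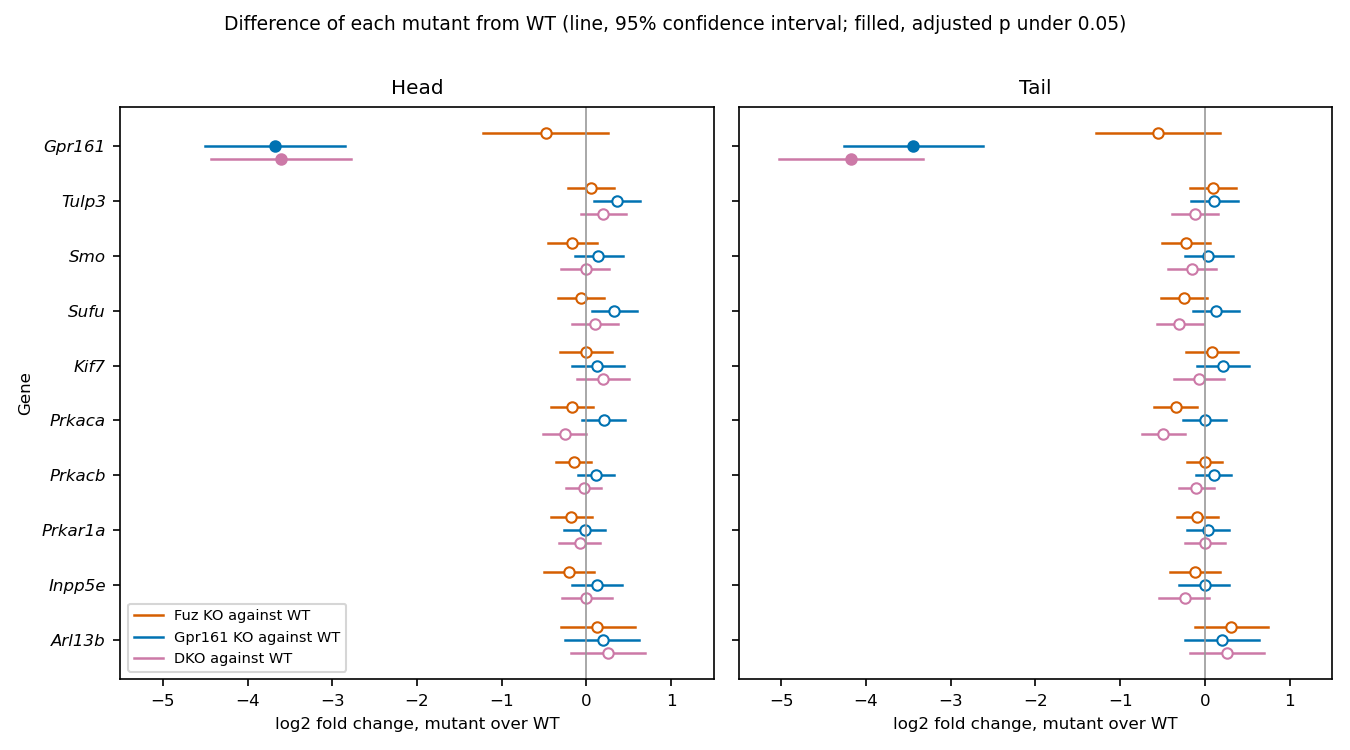
Log2 fold change of each mutant over WT (horizontal axis) for the 10 genes (vertical axis), Head on the left and Tail on the right; lines are 95% confidence intervals and filled points have an adjusted p under 0.05. Only Gpr161 has filled points, at -3.68 and -3.61 in Head and -3.44 and -4.18 in Tail, and the intervals of the other 9 genes stay between -0.74 and 0.75.

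Smo, the membrane protein that passes the Hedgehog signal on once Patched is bound by ligand, was a well expressed member. Its levels in numbers 1 and 2 were 189 and 252 CPM in Head Fuz KO, 274 and 274 CPM in Head Gpr161 KO, 240 and 251 CPM in Head DKO, and 249 and 248 CPM in Head WT. In the Tail they were 200 and 245 CPM in Fuz KO, 276 and 259 CPM in Gpr161 KO, 231 and 236 CPM in DKO, and 268 and 251 CPM in WT. Both Fuz KO 1 libraries were the lowest of their region, and no mutant passed the test against WT, with log2 differences of -0.22 (Tail Fuz KO, adjusted p = 0.816) to 0.14 (Head Gpr161 KO, adjusted p = 0.737). In the Tail all 4 libraries without Fuz, at 200 to 245 CPM, were under the 4 with Fuz, at 251 to 276 CPM. In the Head the ranges of 189 to 252 CPM and 248 to 274 CPM overlapped. The Tail split was noticed after the values were seen, and the share of all genes for the Tail alone is not given here. Without Head Fuz KO 2, which leaves number 1 alone to stand for its group, Smo was called lower in Head Fuz KO than in WT at -0.43, and Prkar1a at -0.37.

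Tulp3, the tubby-family adaptor that carries Gpr161 and other receptors into the cilium, was highest in Head Gpr161 KO. Its levels in numbers 1 and 2 were 51.1 and 43 CPM in Head Fuz KO, 61.2 and 55.7 CPM in Head Gpr161 KO, 53.5 and 51.1 CPM in Head DKO, and 49.4 and 41.5 CPM in Head WT. In the Tail they were 56.5 and 51.8 CPM in Fuz KO, 53.8 and 55.6 CPM in Gpr161 KO, 49.4 and 43.5 CPM in DKO, and 51.1 and 50.1 CPM in WT. The DKO libraries were above WT in Head and below WT in Tail, and the Gpr161 KO libraries above WT in both. Of all genes, 28.4% were higher than WT without overlap in Head Gpr161 KO and 20.8% lower in Tail DKO. Head Gpr161 KO exceeded Head WT by 0.36 on the log2 scale (SE 0.13, unadjusted p = 0.0129, adjusted p = 0.203), which did not pass the test, and the difference between the DKO effects, Head minus Tail, was 0.32 (SE 0.18, adjusted p = 1). The Head Gpr161 KO difference from WT was called, at 0.34, when the Fuz KO 1 and DKO 1 libraries of both regions were left out.

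Sufu, the cytoplasmic inhibitor that holds Gli proteins back, was also highest in Head Gpr161 KO. Its levels in numbers 1 and 2 were 66.9 and 75.7 CPM in Head Fuz KO, 100 and 86.5 CPM in Head Gpr161 KO, 81.9 and 77.5 CPM in Head DKO, and 79.2 and 69.7 CPM in Head WT. In the Tail they were 61 and 69 CPM in Fuz KO, 84.1 and 84.9 CPM in Gpr161 KO, 68.6 and 57.2 CPM in DKO, and 79.3 and 75 CPM in WT. Gpr161 KO stood above WT without overlap in both regions, as 28.4% of all genes did in the Head. In the Tail all 4 libraries without Fuz, at 57.2 to 69 CPM, were under the 4 with Fuz, at 75 to 84.9 CPM. This split was noticed after the values were seen, and the share of all genes for the Tail alone is not given here. The log2 difference from WT was 0.33 in Head Gpr161 KO (SE 0.13, adjusted p = 0.267) and -0.3 in Tail DKO (SE 0.13, adjusted p = 0.651), and neither passed the test. Tail DKO was below Tail Gpr161 KO, with a log2 difference of -0.43 (SE 0.13, unadjusted p = 0.00471, adjusted p = 0.16), a difference that was called, at -0.56, only when the Fuz KO 1 and DKO 1 libraries were left out.

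Kif7, the ciliary-tip kinesin that organises Gli and Sufu, ranged from 23.7 CPM (Tail DKO 2) to 32.7 CPM (Tail Gpr161 KO 2), and each pair of neighbouring groups in its order overlapped. Its largest differences from WT were 0.21 in Tail Gpr161 KO (adjusted p = 0.916) and 0.19 in Head DKO (adjusted p = 0.957). Kif7 shares 877 of its 4581 exon bases with an antisense gene, 9330171B17Rik, and 51 with Ticrr on the other strand, and the strand setting of the counting is not given in the sources used here. 9330171B17Rik had at most 0.395 CPM, whereas Ticrr had 42.6 to 69.9 CPM.

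Prkaca, a catalytic subunit of PKA, showed the widest differences of the 9. Its levels in numbers 1 and 2 were 88.5 and 96.8 CPM in Head Fuz KO, 117 and 124 CPM in Head Gpr161 KO, 85 and 90.2 CPM in Head DKO, and 109 and 100 CPM in Head WT. In the Tail they were 68.1 and 83.8 CPM in Fuz KO, 96.3 and 95.5 CPM in Gpr161 KO, 73.6 and 63.4 CPM in DKO, and 96.7 and 95.8 CPM in WT. In each region the 4 libraries without Fuz were under the 4 with Fuz, at 85 to 96.8 against 100 to 124 CPM in Head and 63.4 to 83.8 against 95.5 to 96.7 CPM in Tail. This split was noticed after the values were seen. Of all genes tested, 1.12% (239 genes) lay lower without overlap in both regions in the same way, and Prkaca was the 1 member among them. All 8 libraries without Fuz were male and all WT libraries female. In Gpr161 KO the male number 1 was at 117 CPM in Head and 96.3 CPM in Tail. The female number 2 was at 124 and 95.5 CPM. These numbers also differ in hypoxia median, and the part of sex in the split was not tested.

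A single Prkaca difference was called. Head DKO was below Head Gpr161 KO, with a log2 difference of -0.46 (SE 0.12, adjusted p = 0.0457), in a comparison in which 4.16% of all genes were called. The call is a marginal one: the difference ran from -0.5 to -0.41 over 26 alternatives, and 10 of them kept it under the threshold, with adjusted p-values of 0.00825 to 0.3. It was lost without either Head DKO library, either Gpr161 KO library of each region, either WT library of each region or either Tail DKO library, with the region fitted alone, with no filter, with haemoglobin and mitochondrial genes removed, and with sex as a term (-0.44, adjusted p = 0.142). Tail DKO was also below Tail Gpr161 KO, at -0.48 (SE 0.12, adjusted p = 0.0906), where edgeR called 0 members and 0.522% of all genes, 2 members, Prkaca and Sufu, had an unadjusted p under 0.05 (12.2% of all genes did) and DESeq2 called 1 member, Prkaca. The call was also made, at -0.49 and -0.48, when 1 of the Head Fuz KO libraries, number 1 or number 2, was left out.

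Against WT, the log2 difference of Prkaca was -0.25 in Head DKO (SE 0.12, adjusted p = 0.957), -0.49 in Tail DKO (SE 0.12, adjusted p = 0.325), -0.17 in Head Fuz KO (SE 0.12, adjusted p = 0.641) and -0.34 in Tail Fuz KO (SE 0.12, adjusted p = 0.816). For Gpr161 KO it was 0.21 in Head (adjusted p = 0.511) and 0 in Tail (adjusted p = 1). None passed the test. DESeq2 called the Tail DKO difference at -0.49 (adjusted p = 0.0322, with a range of 0.0179 to 1 over 26 alternatives), and with sex as a term it was -0.45 with an adjusted p of 1. All DKO libraries were male and all WT libraries female. The sex term rests on the Gpr161 KO groups alone, in which the male number 1 also had the higher hypoxia median. The part of sex in the difference therefore cannot be told apart.

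Prkacb, the other catalytic subunit measured, and Prkar1a, the regulatory subunit that holds the kinase inactive until cyclic AMP binds, differed less. Prkacb ranged from 89.8 CPM (Head Fuz KO 1) to 116 CPM (Head Gpr161 KO 1), with log2 differences from WT of -0.15 (Head Fuz KO, adjusted p = 0.62) to 0.11 (Head Gpr161 KO, adjusted p = 0.72). Prkar1a ranged from 266 CPM (Head Fuz KO 1) to 344 CPM (Head WT 1), and all of its neighbouring groups overlapped. Of the PKA members, then, Prkaca alone had groups that separated by Fuz in both regions, and Head Fuz KO 1 was the lowest library of both others.

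Promoters of 2 PKA members are shown because PKA is known to activate the factor CREB, which binds the cAMP-response element TGACGTCA. Capitals mark matches to the element or to its half-site TGACG, on either strand. The Prkaca stretch is the 250 bases before its start (RefSeq, GRCm38.p6, plus strand, chr8:83972728-83972977), in which both half-sites lie on the minus strand, with first bases at -120 and -6 from the start. The Prkar1a stretch is 30 bases around a full element (GRCm38.p6, plus strand, chr11:109650889-109650918), with its first base at -49 from a start.
Prkaca: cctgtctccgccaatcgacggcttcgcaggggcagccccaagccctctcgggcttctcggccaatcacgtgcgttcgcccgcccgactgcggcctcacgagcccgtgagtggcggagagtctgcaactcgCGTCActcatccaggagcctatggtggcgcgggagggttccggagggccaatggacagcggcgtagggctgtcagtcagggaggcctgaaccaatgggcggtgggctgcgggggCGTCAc
Prkar1a: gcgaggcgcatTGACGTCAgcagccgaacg

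Windows of 250 bases before to 50 after the start were searched on both strands in 32851 RefSeq promoters, 20 of them for the 10 members. The full element TGACGTCA was in 2 of the 20, both overlapping windows of Prkar1a, and in 1.79% of all windows. The half-site TGACG, which is contained in the full element, was in 8 of the 20 and in 20.8% of all. The Gli consensus GACCACCCA was in 0 of the 20 and in 0.253% of all, and the windows of Ptch1 and Hhip had none either. A match is a string of letters and no evidence of binding.

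Inpp5e, the ciliary lipid phosphatase that keeps low the lipid to which Tulp3 binds, ranged from 23.5 CPM (Head Fuz KO 1) to 33.4 CPM (Head Gpr161 KO 1). Both Tail DKO libraries, at 24.1 and 24.3 CPM, were under both Tail WT libraries, at 27.4 and 29.9 CPM, as were 20.8% of all genes. The log2 difference was -0.24 (SE 0.14, adjusted p = 0.756). Inpp5e shares 874 of its 4301 exon bases with Pmpca on the other strand, a gene at 104 to 122 CPM, so part of its count could be Pmpca reads if strand was not used. Arl13b, the ciliary membrane GTPase that targets Inpp5e to the cilium, ranged from 24.2 CPM (Head WT 2) to 42.8 CPM (Tail Fuz KO 1). It was higher in number 1 than in number 2 of all 8 groups, most in Tail Fuz KO (42.8 and 28.4 CPM) and by less in Head WT (25.7 and 24.2 CPM) and Tail WT (30.6 and 26.6 CPM). Its differences from WT of 0.13 to 0.31 did not pass the test, the largest being Tail Fuz KO (SE 0.2, adjusted p = 0.816). The number 1 mutant libraries are those with the higher hypoxia medians, and their part in the Arl13b level was not tested.

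**Figure D3:**
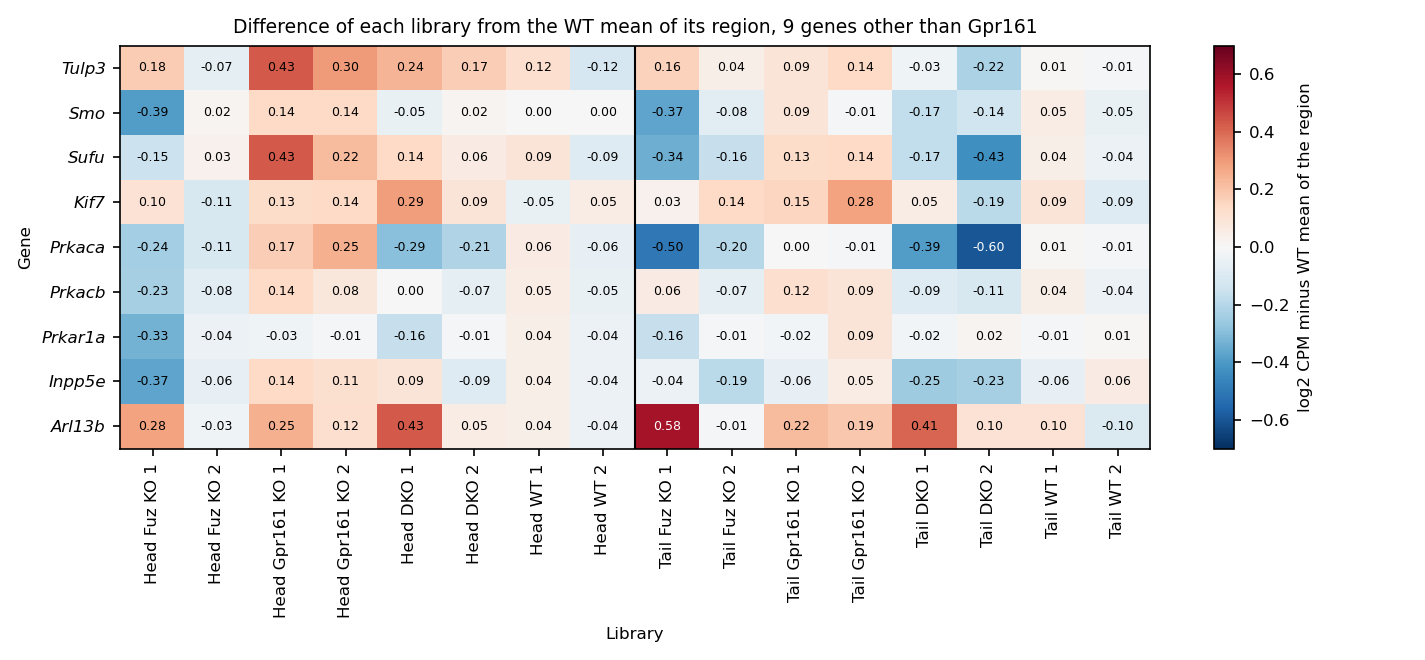
Log2 CPM of each library minus the WT mean of its region (colour and printed values) for the 9 genes other than Gpr161 (rows) in the 16 libraries (columns), mutants left of WT within Head and Tail. Prkaca is below WT in all 8 libraries without Fuz, at -0.11 to -0.6, and the Fuz KO 1 columns hold the lowest Smo values and the highest Arl13b value of 0.58.

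Some groups were apart without overlap although no test was passed, and such counts are set beside the share of all genes. In Head Gpr161 KO, 8 members were higher than WT in both libraries, where 28.4% of all genes were, and their median log2 difference without Gpr161 was 0.14, against 0.01 for all genes. In Tail DKO, 7 members including Gpr161 were lower than WT without overlap, where 20.8% of all genes were, and the median without Gpr161 was -0.12, against 0.01 for all genes. Tail DKO against Tail Gpr161 KO had 8 members lower (23% of all genes), with a median of -0.24 without Gpr161, and Head DKO against Head Gpr161 KO had 6 lower (25.8% of all genes), with a median of -0.14. Markers of other cell types differed as well. The 10 endothelial markers summed to 611 and 511 CPM in Head Gpr161 KO, against 350 and 326 CPM in Head WT, and the 8 neural progenitor markers to 860 and 1048 CPM in Head Gpr161 KO, against 1187 and 1205 CPM in Head WT, beside the cardiomyocyte sums given above. Of the neural progenitor markers, Sox1, Sox3, Hes5, Pax6 and Fabp7 were lower without overlap and Nes overlapped. Sox2 (187 and 169 against 148 and 143 CPM) and Notch1 (105 and 111 against 86.9 and 94.4 CPM) were higher. The 10 mesenchyme markers summed to 3012 and 2648 CPM in Tail DKO, against 2022 and 1812 CPM in Tail WT. Of these, Col1a1, Col1a2, Col3a1 and Pdgfra were higher in Tail DKO without overlap. Prrx1 was lower, at 119 and 154 against 204 and 158 CPM, and the others overlapped. The part of these cell types in the members' counts was not tested. These 4 counts are the largest in 1 direction among the pairs of groups compared, and they were the same with RLE scaling in place of TMM. Some other counts changed. Head DKO against Head WT had 3 members higher and 2 lower with TMM, and 1 and 3 with RLE. Head WT against Tail WT had 3 higher and 3 lower with TMM, and 4 and 2 with RLE. The share of all genes for these other pairs is not given here. The members share libraries and the comparisons share groups, so the counts are not independent.

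The means over both regions gave the same calls. Gpr161 fell by 3.56 on the log2 scale in Gpr161 KO (SE 0.27, adjusted p = 3.59e-05) and by 3.89 in DKO (SE 0.27, adjusted p = 2.16e-05), and edgeR called no other member, where it called 2.61% and 0.103% of all genes. DESeq2 called Prkaca as well in DKO. The region means treat Head and Tail libraries as separate samples, although the labels do not say whether those of the same number share an embryo. With Head and Tail counts of the same genotype and number summed, a setting chosen after seeing the data, edgeR again called Gpr161 alone among the members in Gpr161 KO (-3.58) and DKO (-3.89), and 0 members in Fuz KO, where 1 had an unadjusted p under 0.05. Prkaca in DKO was at -0.37 (SE 0.08, unadjusted p = 0.000645, adjusted p = 0.18, range over 25 alternatives 0.00806 to 1), and 4 alternatives called it. In Fuz KO, 0.0611% of all genes were called and 0 members by edgeR or DESeq2, with 1 member, Prkaca, at an unadjusted p under 0.05 (-0.26, adjusted p = 0.341), as were 14.1% of all genes.

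Whether the DKO differs from the sum of the single knockouts, and whether an effect differs between Head and Tail, was asked of every member. No member was called for non-additivity in Head or Tail by edgeR (0.164% and 0.0423% of all genes) or DESeq2, and none had an unadjusted p under 0.05, where 8.02% and 6.24% of all genes did. No member was called for a difference of effect between Head and Tail in Fuz KO, Gpr161 KO or DKO (0%, 0.094% and 0% of all genes), nor by DESeq2. At an unadjusted p under 0.05 were 2.12%, 5.26% and 3.25% of all genes. Sufu in DKO was the 1 member among them, with a Head effect above the Tail effect by 0.39 (SE 0.18, adjusted p = 1). With 2 libraries per group these differences have wide intervals, for Sufu 0.01 to 0.78.

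Between the regions of WT embryos, no member differed by the edgeR test or by DESeq2, and none had an unadjusted p under 0.05, while 3.77% of all genes were called and 13.7% had such a p. Differences of Head WT from Tail WT ran from -0.2 (Arl13b, adjusted p = 0.811) to 0.15 (Gpr161, adjusted p = 0.94). To compare the genes with each other, CPM was divided by exon length. Prkar1a was the highest at a median of 73.7 CPM per kb over the 4 WT libraries, followed by Smo at 44.5, Prkaca at 39.5, Prkacb at 11.9, Sufu at 10, Gpr161 at 7.57, Inpp5e at 6.9, Kif7 at 5.7, Tulp3 at 5.32 and Arl13b at 5.15. Smo (44 to 47.7) and Prkaca (38.5 to 43.6) did not overlap, nor did Prkacb (11.6 to 12.4) and Sufu (9.06 to 10.3), while the lowest 3, Kif7 (5.45 to 6.28), Tulp3 (4.45 to 5.46) and Arl13b (4.77 to 6.02), overlapped.

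**Figure D4:**
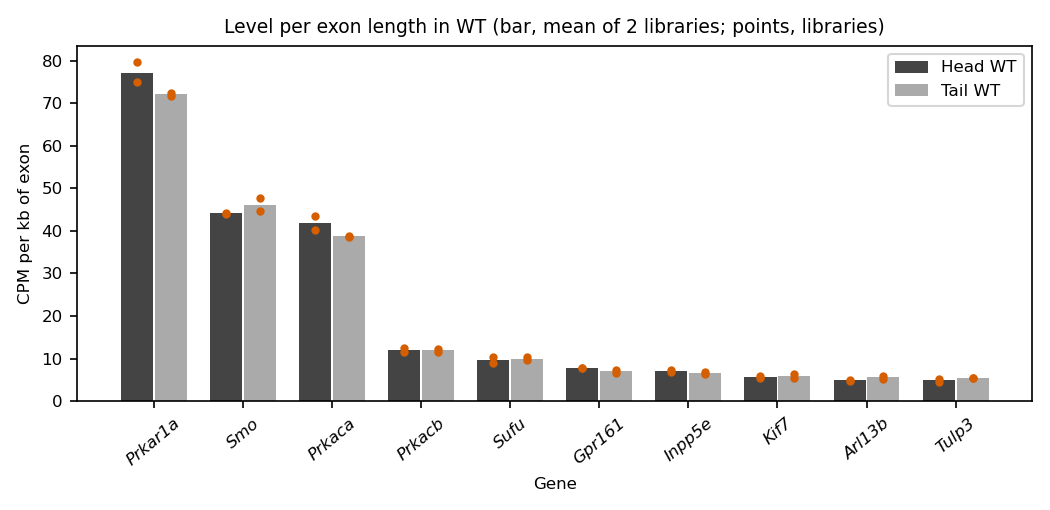
CPM per kb of exon (vertical axis, from 0) of the 10 genes in Head WT and Tail WT; bars are means of 2 libraries and points the libraries. Prkar1a stands highest, at 71.7 to 79.6, and none of the 10 passed the test between Head WT and Tail WT.

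Target genes of the pathway rose in Gpr161 KO. Gli1, a Gli factor that is itself a target, was at 80.3 and 88.9 CPM in Head Gpr161 KO, against 36.4 and 43.7 CPM in Head WT, and at 114 and 130 CPM in Tail Gpr161 KO, against 38.2 and 45.9 CPM in Tail WT. The targets Gli1, Ptch1 and Hhip, 3 of 3, rose in Gpr161 KO in both regions, Ptch1 by 1.7 in Head (SE 0.26, adjusted p = 0.00634) and 1.89 in Tail (SE 0.26, adjusted p = 0.0129) on the log2 scale. Over both regions the 3 were called under each of 25 alternatives and with Head and Tail counts summed. In Head, the call was lost for Gli1 without any 1 of the Gpr161 KO or WT libraries, for Ptch1 without Gpr161 KO 1 or either WT library and for Hhip without either WT library. In Tail, it was lost for Ptch1 and Hhip without any 1 of the Gpr161 KO or WT libraries and for Gli1 without Gpr161 KO 2. Their log2 differences were 0.93 to 1.2 (Gli1), 1.55 to 1.81 (Ptch1) and 1.86 to 2.44 (Hhip) over 26 alternatives in Head and 1.42 to 1.67, 1.83 to 1.96 and 1.69 to 2.32 for the same genes in Tail. In DKO against WT edgeR called 0 of the 3 in either region, DESeq2 called 1 in Head (Gli1) and 0 in Tail, and 1 in Head (Gli1) and 1 in Tail (Hhip) had an unadjusted p under 0.05. In DKO Gli1 was at 24.9 and 20.3 CPM in Head, below Head WT, and at 40 and 35.4 CPM in Tail. Hhip was at 28.7 and 24.7 CPM in Tail DKO, above Tail WT at 14.9 and 15 CPM. All 3 targets were lower in DKO than in Gpr161 KO without overlap in both regions. In Head, edgeR (4.16% of all genes) and DESeq2 each called 3 of these differences. In Tail, edgeR (0.522% of all genes) called 2 and DESeq2 3. Gli1 fell by 1.59 in Head Fuz KO (SE 0.19, adjusted p = 0.00862), a call lost without Head WT 2, with the region alone and with sex as a term, at -1.75 to -1.42 over 26 alternatives. Of the 3 targets, edgeR called 1 in Head Fuz KO (0.047% of all genes) and DESeq2 called 2. In Tail Fuz KO both tools called 0 (0.0094% of all genes by edgeR), and 1 had an unadjusted p under 0.05 by edgeR. Over both regions edgeR called 1 (0.0611% of all genes) and DESeq2 2. Of the effectors, Gli3, the main source of repressor, fell by 0.87 in Head Gpr161 KO (SE 0.15, adjusted p = 0.0104). Gli2 was at -0.32 there (SE 0.14, adjusted p = 0.351). The Head call of Gli3 was lost without Head Gpr161 KO 2 or either Head WT library, at -1.07 to -0.73 over 26 alternatives. Gli3 was lower in the Tail too: Tail WT had 157 and 133 CPM, and Tail Gpr161 KO had 88.4 and 96.2 CPM. For that Tail comparison edgeR called 0 of the 2 effectors and DESeq2 called 1. Over both regions the Gli3 difference was -0.76 (edgeR, adjusted p = 0.00234), and each tool called 1 of the 2. With Head and Tail counts summed, Gli3 stayed called at -0.78 (edgeR, adjusted p = 0.0433).

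Around PKA, 20 further subunits, inhibitors, adenylyl cyclases and G proteins were tested. In Head Gpr161 KO against WT edgeR called 1 of the 20 higher and 0 lower, beside 2.02% of all genes called, DESeq2 called 3 (Gnas, Adcy5 and Adcy6), and 4 had an unadjusted p under 0.05, with a list median of 0.12 against 0.01 for all genes, and in Tail Gpr161 KO 0 were called by edgeR or DESeq2, with 2 at an unadjusted p under 0.05 and a median of 0. The one that rose was Gnas, which encodes the stimulatory G protein that couples receptors to cyclic AMP. Gnas was at 92.3 and 100 CPM in Head Gpr161 KO, against 44.6 and 55.1 CPM in Head WT, a log2 difference of 0.95 (SE 0.22, adjusted p = 0.0467). Tail Gpr161 KO had 87.6 and 85.9 CPM of Gnas and Tail WT 59.4 and 67.3 CPM, a log2 difference of 0.45 that did not pass the test (SE 0.22, adjusted p = 0.753). Head DKO, at 61.4 and 43 CPM, was below Head Gpr161 KO, with a log2 difference of -0.88 (SE 0.22, adjusted p = 0.0426). In that comparison 3 of the 20 fell, beside 4.16% of all genes called, and the others, chosen after their values were seen, were the adenylyl cyclases Adcy5 (-1.7, SE 0.28, adjusted p = 0.00535) and Adcy6 (-0.49, SE 0.11, adjusted p = 0.0286). The Gnas calls held in 8 of 26 alternatives against Head WT, at 0.78 to 1.09, and in 9 of 26 against Head Gpr161 KO, and both were lost without any 1 of the Head or Tail libraries of Fuz KO, Gpr161 KO or WT. The comparison with Head Gpr161 KO also lost it without either Head DKO library. Both were lost with haemoglobin and mitochondrial genes removed, without the Fuz KO 1 libraries and with sex as a term, and the call against WT with RLE scaling, with the filter of 5 CPM and with the region alone. The Adcy6 call was lost without any 1 of the Head DKO libraries or of the Gpr161 KO or WT libraries of either region, with no filter, with the region alone and with sex as a term, and the Adcy5 call without either Head DKO library. Adcy5 was at 19.5 and 21.1 CPM in Head Gpr161 KO, the group in which the cardiomyocyte markers summed to 2698 and 571 CPM, and at 9.64 and 8.71 CPM in Head WT. The part of cardiac cells in the Adcy5 level was not tested. DESeq2 called this rise of Adcy5 over Head WT, and edgeR did not. Averaged over both regions, the Adcy5 log2 difference of Gpr161 KO from WT was 0.14 (edgeR, adjusted p = 0.797). The Tail difference therefore went the other way, and neither tool called it. For the Gpr161 KO effect in Head minus Tail, edgeR called 0 of the 20 and DESeq2 called 1, while 2 had an unadjusted p under 0.05. The Gnas locus holds several overlapping and antisense transcripts, so its count is less certain than that of the members.

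The remaining lists held few calls. Of 25 Smo partners and Gli-processing factors, edgeR called 1 higher in Gpr161 KO over both regions, beside 2.61% of all genes called. It was Arrb1, a beta-arrestin reported to help Smo into the cilium. Arrb1 was at 142 and 147 CPM in Head and 133 and 121 CPM in Tail Gpr161 KO, against 110 and 99.5 CPM in Head and 99.4 and 89.1 CPM in Tail WT, a mean log2 difference of 0.45 (SE 0.09, adjusted p = 0.0231). That call was lost without any 1 of the Gpr161 KO or WT libraries and with sex as a term, at 0.4 to 0.48 over 25 alternatives, and it was lost, at 0.43, with Head and Tail counts summed. Arrb1 also fell in Head DKO, at 79.6 and 96.9 CPM, against 142 and 147 CPM in Head Gpr161 KO, with a log2 difference of -0.71 (SE 0.13, adjusted p = 0.00964). This call held in 23 of 26 alternatives, the exceptions being those without Head Gpr161 KO 1, Head Gpr161 KO 2 or Head DKO 1. DESeq2 also called 1 of the 25, Arrb1, in Tail DKO against Tail Gpr161 KO, where edgeR called 0 and 7 had an unadjusted p under 0.05. Of 19 IFT-A, tubby and BBSome genes, the proteins that move receptors in and out of the cilium, 0 were called by edgeR against WT in any mutant, at most 3 had an unadjusted p under 0.05 in a comparison, and DESeq2 called 1, Bbip1, in Gpr161 KO over both regions. Bbip1, a BBSome subunit, was also nearest by edgeR, at -0.38 in Gpr161 KO over both regions (SE 0.12, unadjusted p = 0.0082, adjusted p = 0.139). Of 17 Arl13b and Inpp5e partners 0 were called by edgeR or DESeq2 against WT, and at most 4 had an unadjusted p under 0.05 in a comparison. The transition-zone gene Tctn2 was nearest by edgeR, at 0.37 in Gpr161 KO over both regions (SE 0.15, adjusted p = 0.246). In Tail DKO against Tail Gpr161 KO, DESeq2 called 1 of the 17 and edgeR 0. Of 8 other ciliary receptors 0 were called by edgeR or DESeq2 against WT, with 2 at an unadjusted p under 0.05 in Gpr161 KO over both regions. Against WT the dopamine receptor Drd1 was nearest, at 1.76 in Gpr161 KO over both regions (SE 0.56, adjusted p = 0.139), on levels of at most 1.82 CPM. In Head DKO against Head Gpr161 KO edgeR and DESeq2 each called 1 of the 8, Drd1, at 0.0471 and 0.0473 CPM in Head DKO, against 0.838 and 1.82 CPM in Head Gpr161 KO. That call held in 20 of 25 alternatives and was lost without Head Gpr161 KO 2 or either Head DKO library, with the region alone and with sex as a term.

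Among the members themselves, levels over the 16 libraries were most alike for Sufu and Prkaca (Pearson r 0.832, Spearman rho 0.712), Smo and Prkar1a (0.792, 0.503) and Sufu and Inpp5e (0.746, 0.724). For Gpr161 the values ran from r -0.445 and rho -0.685 with Arl13b to r 0.165 and rho 0.444 with Prkaca. These are descriptions over libraries that share genotype, region and depth. Of all genes with a symbol and a mean of at least 5 CPM, Draxin (r 0.769), Mkx (0.75) and Pcdh19 (0.736) were most like Gpr161 over the 16 libraries. Over the 8 WT and Fuz KO libraries, in which Gpr161 is intact, they were Trim35 (0.995), Tada2b (0.995) and Trafd1 (0.993), where the spread is mostly that between Fuz KO 1 and the rest. Prkaca was most like Gna12 (0.992), Fam53b (0.959) and Prex1 (0.953). Sufu was most like Smad3 (0.943), Smo most like Arhgap35 (0.964), Arl13b most like Nek8 (0.955), Prkar1a most like Cdh11 (0.947), Prkacb most like Acap2 (0.94), Inpp5e most like Zfp608 (0.904), Tulp3 most like Sbno2 (0.873) and Kif7 most like Supt5 (0.806).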

How the data were processed

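Total RNA came from a Zymo kit that uses Trizol, with DNase treatment, and poly-A libraries were made with a NEBNext Ultra kit, per the labels' protocols. The authors deposited 1 table per library of raw read counts per Ensembl gene, not normalized. Per the submitters' processing notes, the build was GRCm39 and the programs included HTSeq, featureCounts 1.6.0, StringTie 2.0.4, STAR 2.7.1a, Trimmomatic, Picard 2.20.4 and FastQC. Which of them gave the counts, and whether strand was used, is not stated. Of the 54838 identifiers, 54809 matched GENCODE M21 (build GRCm38), the source of gene names, chromosomes and exon lengths here. Promoters came from RefSeq (GRCm38.p6). The notes on Tail Fuz KO 2 say that its raw reads cannot be recovered; its counts were used.

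Counts were scaled by TMM, filtered with filterByExpr (21284 genes kept) and fitted with edgeR 4.0.16 (R 4.3.3, limma 3.58.1), as 1 robust quasi-likelihood fit of 8 groups over 16 libraries with no covariate. Each of 19 comparisons was adjusted by the Benjamini-Hochberg method over all genes tested, and a gene was called at an adjusted p under 0.05. Levels are CPM after TMM, and log2 CPM used a prior count of 2. The fit was tested on simulated data.

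The members and all gene lists were chosen with earlier results of these data known, so no pattern in them is independent support. Named were the 10 members, the readout genes, Gli2 and Gli3, Fuz, up to 3 genes called against WT from each pathway list or else the 1 with the lowest adjusted p, and up to 3 genes most like a member by Pearson r. Some listed genes are not reported here. Groups and numbers came from the sample titles, and the labels do not say that equal numbers mark the same embryo. Alternatives were RLE scaling, no filter, a filter of 5 CPM in 2 libraries, DESeq2 1.42.0, each region alone, blocks by number or by genotype and number, removal of haemoglobin and mitochondrial genes, sex as a term, and leaving out libraries. Only the Gpr161 KO groups held both sexes, so the sex term cannot be told apart from number and hypoxia state in those libraries. For the means over both regions, Head and Tail counts of the same genotype and number were also summed, which was decided after seeing the data. Sequence coordinates of the build named in the notes and protein sequences were not used here.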

Additional observations from a re-analysis of the deposited data

How the results depend on the processing

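No difference that was called, first or under an alternative, changed sign. Of the counts of members called, 283 of 304 recomputed without 1 library and 169 of 187 under other alternatives stayed within 1.5 times their first value. Of the single differences of members, 17 calls were lost and 7 gained without 1 library, and 5 lost and 15 gained under other alternatives. For the named pathway genes these were 106 lost and 24 gained, and 30 lost and 99 gained. Where a count moved, the cause was not tested. With sex as a term, 0 members were called in Head DKO against WT and 0 in Head DKO against Head Gpr161 KO, and the last was also 0 with no filter, with each region fitted alone and with haemoglobin and mitochondrial genes removed. With the Fuz KO 1 libraries left out, 2 were called in Tail DKO against WT, 1 in Tail DKO against Tail Gpr161 KO and 2 in DKO over both regions. With DKO 1 left out too, these were 2, 2 and 2, and 2 in Head Gpr161 KO and 3 in Gpr161 KO over both regions against WT, with Tulp3 (0.22) and Sufu (0.21) added. DESeq2 called 2 in Tail DKO against WT, 1 in Tail DKO against Tail Gpr161 KO and 2 in DKO over both regions. With no filter, 1 was called in Fuz KO over both regions (Gpr161, -0.52) and 2 in DKO over both regions. Without 1 library, counts ran from 0 to 2 in Head Fuz KO, 0 to 1 in Head DKO, 0 to 1 in Tail Gpr161 KO and 0 to 3 in Fuz KO over both regions against WT. They ran from 0 to 1 in Head and in Tail DKO against Fuz KO, and from 0 to 1 in Head and in Tail DKO against Gpr161 KO. The 3 in Fuz KO, without Head Fuz KO 2, were Gpr161 (-0.84), Smo (-0.32) and Prkaca (-0.3).

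RLE scaling moved the median of all genes by at most 0.03 on the log2 scale. With the number as a replicate block, no member count changed, while all genes called in Head Gpr161 KO against WT numbered 659 with the block and 429 without it, and in Tail Gpr161 KO 122 and 65. With a replicate block by genotype and number, the effect of Gpr161 KO in Head minus Tail had 217 genes called, against 20 without it, none of them a member. The difference between numbers 1 and 2 correlated between Head and Tail of the same genotype (r 0.437 in Fuz KO, 0.282 in DKO, 0.196 in Gpr161 KO and 0.133 in WT) and at -0.0787 to 0.302 for other pairs of groups. With Head and Tail counts of a genotype and number summed, an alternative chosen after seeing the data, the 3 comparisons over both regions kept their counts of members called, while Gnas (0.68) and Arrb1 (0.43) in Gpr161 KO, Gli1 (-1.14) and Fuz (-2.42) in Fuz KO and Fuz (-2.23) in DKO were no longer called. With 2 libraries per group and 8 residual degrees of freedom, the intervals given with each difference limit what could be seen.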
